A study of Mus musculus with 5 samples.

Results

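The genes described here encode the YAP and TAZ co-activators, the TEAD factors through which they act, and 4 widely used target genes. They were chosen by symbol, with earlier results of these data known, and are Yap1, Wwtr1 (which encodes TAZ), Tead1, Tead2, Tead3, Tead4, Ccn1 (Cyr61), Ccn2 (Ctgf), Ankrd1 and Amotl2. These are 10 of the 17923 genes listed in at least 1 library, and all 10 were listed in all 5 libraries.

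The libraries came from mouse cell lines grown out of thyroid tumors driven by BrafV600E, an activating mutation of the BRAF kinase that every line carries. The 2 BVE-Ctnnb1wt libraries came from a single line, BVE, with intact Ctnnb1 (the β-catenin gene), and both are labelled passage 20, wt library 1 without and wt library 2 with TSH, the thyrotropin that acts on follicular cells. The 3 BVE-Ctnnb1null libraries came from lines in which Ctnnb1 was deleted. They were null library 1 from BVECTN_4 at passage 8 without TSH, null library 2 from BVECTN_4A at passage 11 and null library 3 from BVECTN_5 at passage 7, with no TSH label for the last 2. Whether BVECTN_4 and BVECTN_4A share an origin is not stated. The protocol instead gives about 25 passages for the BVE-Ctnnb1wt line and about 20 for the BVE-Ctnnb1null lines, and a medium with 4 mU/mL of bovine TSH for all cells. The promoter that drove the mutation and the deletion in the donor mice is not given in the sources used here. Genotype, line and passage therefore cannot be told apart, and the spread between the wt libraries is that of 1 line. The study speaks of 3 biological replicates, whereas the labels list 2 and 3 libraries, and p-values measure only the spread between these libraries. Total estimated counts lay between 29360002 and 30713079 per library. At that depth 3 counts correspond to about 0.10 CPM (counts scaled to the library total).

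The Hippo pathway is a kinase cascade in which MST kinases activate LATS kinases, and LATS kinases phosphorylate YAP and TAZ, which keeps them in the cytoplasm. Unphosphorylated YAP and TAZ enter the nucleus and bind TEAD factors, since they cannot bind DNA on their own. In epithelial cells the cascade is tied to cell junctions, polarity complexes and the actin skeleton, and YAP and TAZ have also been described as partners of the complex that degrades β-catenin. The RNA levels given below do not report the phosphorylation or the location of these proteins.

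Ctnnb1 itself was not lower in the libraries labelled BVE-Ctnnb1null. Its FPKM, a level scaled to transcript length and library total, was 59.3 and 73.8 in wt libraries 1 and 2, and 124.6, 196.3 and 117.8 in null libraries 1, 2 and 3. Every null library was thus above both wt libraries in FPKM, whereas in CPM after TMM normalization null library 3 (344) lay between the wt libraries (251 and 356). The log2 fold change of the counts was 0.55 (SE 0.44, adjusted p = 0.517 by edgeR's quasi-likelihood test), and 0.17 with the transcript length trend described next taken out. It was 0.24 (without wt library 1 or null library 2) to 0.73 when a library was left out. The files give totals per transcript and not per exon, so these values do not check whether the deleted exons were still present.

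Across all genes, the difference between the groups went with the length of the transcript, and this bears on each of the genes below. The comparison used edgeR's quasi-likelihood test on counts over 13240 genes, and log2 fold changes are null over wt. The median log2 fold change was −0.54 over the 985 genes shorter than 1000 bases, 0.11 over genes of 2000 to 3000 bases, 0.87 over genes of 4000 to 6000 bases and 1.79 over the 508 genes of at least 8000 bases. The trend ran the same way in each null library, with medians for the longest class of 1.32, 1.63 and 1.22 above the wt mean on the log2 CPM scale in null libraries 1, 2 and 3. Between the wt libraries the medians of the same classes differed by 0.19 to −0.15. Member genes were between 1765 bases (Ankrd1) and 9696 bases (Tead1) long, so their length classes differ. A further fit, chosen after seeing the data, took the length trend out of the counts. Whether the trend arose in the RNA, in library preparation or in the cells was not tested.

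The lines also differed in markers of cell type. The labels call all of them thyroid epithelial cells. Of 12 thyroid follicular markers, the summed FPKM was 15.3, 20.6, 35.2, 68.5 and 4.84 (wt 1, wt 2, null 1, null 2, null 3), in which the transcription factor gene Nkx2-1 was at 9.21, 15.0, 9.26, 34.8 and 0.26. The TSH receptor gene (Tshr) stayed at or under 0.11 in all 5 libraries, and thyroglobulin (Tg) at or under 0.86. Pax8, a thyroid transcription factor, was 0.40, 0.17, 18.2, 12.8 and 2.56. The 8 epithelial markers summed to 1094, 1770, 13169, 706 and 1402 FPKM, with the keratin genes Krt7 at 79.7, 124, 5131, 111 and 461 and Krt18 at 321, 457, 2605, 346 and 367. Null library 1 was far above the other libraries in these, whereas E-cadherin (Cdh1) and Epcam were not listed in null library 2. The 10 fibroblast markers summed to 289.96, 255.0, 1.70, 148 and 1414 FPKM, led by the collagen gene Col1a1, and Dcn (84.7) and Postn (101.6) were above 1 FPKM in null library 3 alone. The 6 endothelial markers summed to at most 0.68 FPKM. Of 6 immune markers, Ptprc, Cd3e and Adgre1 were listed in no library, and the sum was mostly Cd68, at 6.09, 14.2, 59.8, 1.00 and 39.9. The 3 null lines were therefore unlike one another. In bulk RNA, fewer cells of a type and less RNA per cell cannot be told apart, and the part of these markers in the values below was not tested.

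Both co-activator genes had higher levels in the null libraries, by 4.03-fold for Yap1 and 2.87-fold for Wwtr1 in mean FPKM, but neither passed the test adjusted over all genes. Yap1 was at 6.75 and 5.87 FPKM in the wt libraries and at 14.0, 40.6 and 21.8 in null libraries 1, 2 and 3. The means were 6.31 ± 0.622 (SD, n = 2) and 25.4 ± 13.7 (SD, n = 3), and the groups did not overlap. The log2 fold change of the counts was 1.40 (SE 0.55), with an unadjusted p of 0.0382 and an adjusted p of 0.249 by the quasi-likelihood test of edgeR, adjusted after Benjamini and Hochberg. When a library was left out it was 0.85 (without null library 2) to 1.64. Genes of the length of Yap1 had a median of 0.87, and with the length trend taken out the fold change was 0.80 (SE 0.49), with an adjusted p of 0.50 by the same test.

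Wwtr1 was at 11.8 and 11.8 FPKM in the wt libraries, a ratio of 0.995 in CPM (95% exact counting interval 0.931 to 1.06, which covers counting error only). In null libraries 1, 2 and 3 it was at 16.1, 47.3 and 38.0 FPKM. The groups did not overlap in FPKM, but in CPM after TMM normalization null library 1 (71.9) lay between the wt libraries (68.3 and 77.8). Its log2 fold change of 0.91 (SE 0.53, adjusted p = 0.391 by edgeR's quasi-likelihood test) was within 0.04 of the median of its length class. The fold change was 0.53 (without null library 2) to 1.18 when a library was left out. Summed over both co-activators, the level was 18.6 and 17.6 FPKM in the wt libraries, against 30.1, 87.9 and 59.8 in the null libraries. Wwtr1 was the more abundant of the pair in every library, at 1.75, 2.00, 1.15, 1.17 and 1.75 times the FPKM of Yap1. In the exact permutation test of FPKM, which has 10 ways to divide 5 libraries into 2 and 3 and so cannot give a p under 0.1, both genes had p = 0.2 (two-sided).

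**Figure D1:**
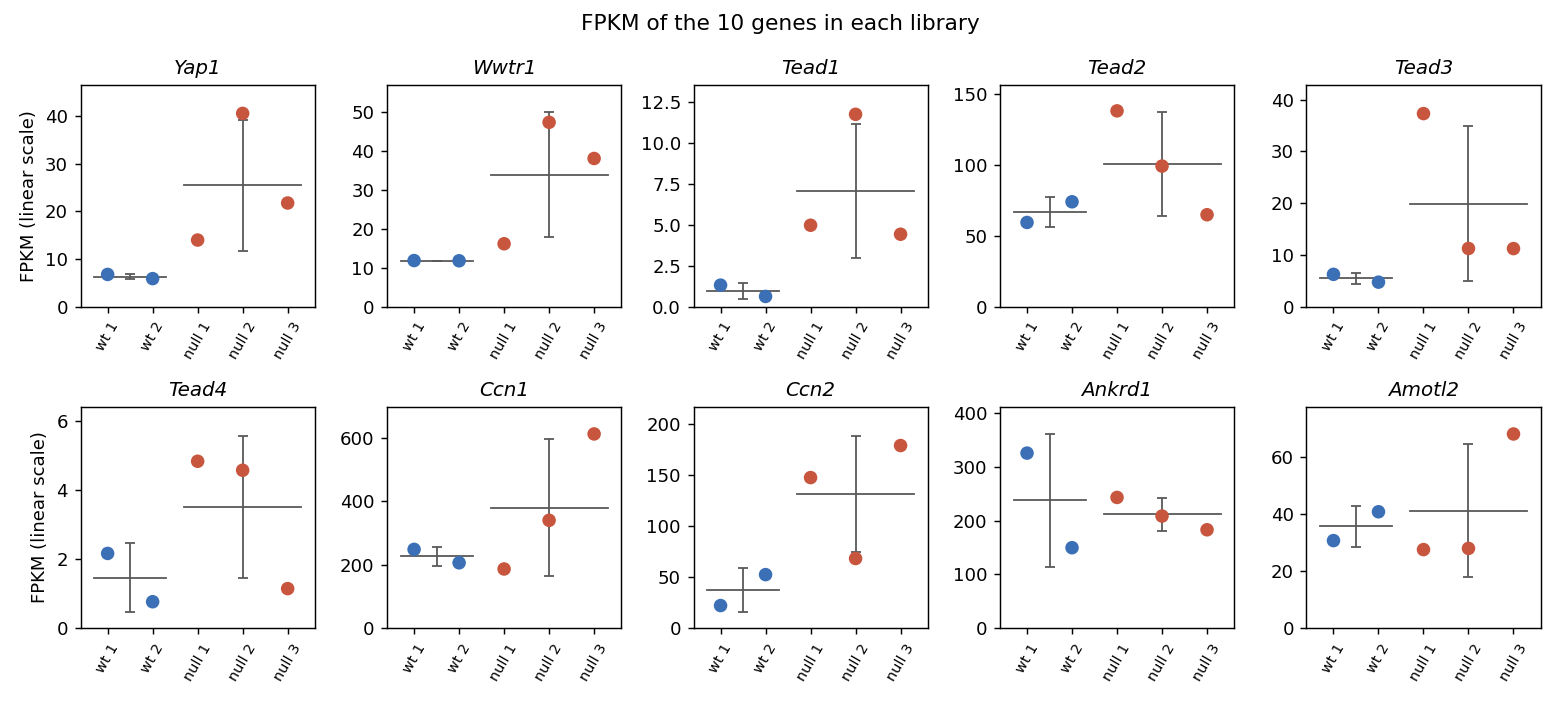
FPKM of each of the 10 genes (linear y axis from 0, its own scale in each panel) in wt libraries 1 and 2 (blue) and null libraries 1, 2 and 3 (red); lines are group means and bars the SD. The groups do not overlap for Yap1, Wwtr1, Tead1, Tead3 and Ccn2, and overlap for the other 5 genes.

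The 4 TEAD genes encode closely related DNA-binding factors, and Tead2 was the most abundant in all 5 libraries. Tead2 was at 59.4 and 74.0 FPKM in the wt libraries and at 138, 99.2 and 64.8 in null libraries 1, 2 and 3. Null library 3 lay between the wt libraries in FPKM, so the groups overlapped. In CPM after TMM normalization the groups also overlapped, but null library 3 (113) was below both wt libraries (151 and 215). On counts the log2 fold change was 0.02 (SE 0.51, adjusted p = 0.986 by edgeR's quasi-likelihood test), and DESeq2 gave −0.067.

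Tead1 had the largest ratio of mean FPKM between the groups among the 10 genes, at 7.30-fold. It was at 1.31 and 0.62 FPKM in the wt libraries and at 4.97, 11.8 and 4.42 in the null libraries, with no overlap and an exact permutation p of 0.2. Its log2 fold change of 2.26 (SE 0.65) had an unadjusted p of 0.0111 and an adjusted p of 0.192 by edgeR's quasi-likelihood test. DESeq2 gave 2.18 with an adjusted p of 0.0167, in a range of 0.0167 to 0.605 over the alternatives that kept both wt libraries. When a library was left out, the log2 fold change was 1.63 (without null library 2) to 2.68. Tead1 also had the longest transcripts of the 10 genes, and 74.4% of all genes of at least 8000 bases had every null library above both wt libraries in FPKM. With the length trend taken out, the value was 0.62 (SE 0.51, adjusted p = 0.605 by edgeR's quasi-likelihood test).

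Tead3 stood out in 1 line. It was at 6.23 and 4.72 FPKM in the wt libraries, 37.3 in null library 1, 11.2 in null library 2 and 11.2 in null library 3. The groups did not overlap, and the log2 fold change was 1.39 (SE 0.75, adjusted p = 0.358 by edgeR's quasi-likelihood test). Its length class had a median of 0.11, so the value barely moved when the length trend was taken out (1.38). Without null library 1 the log2 fold change was 0.38. Tead4 had the lowest mean FPKM of the TEAD genes over all 5 libraries, although Tead1 was lower in both wt libraries. Tead4 was at 2.17 and 0.77 FPKM in the wt libraries, against 4.84, 4.58 and 1.15 in the null libraries. Its groups overlapped, and the log2 fold change was 0.73 (SE 0.86, adjusted p = 0.664 by edgeR's quasi-likelihood test), with 0.12 without wt library 2 and 1.42 without wt library 1.

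The makeup of the TEAD family also differed between libraries. The summed FPKM of the 4 genes was 69.1 and 80.1 in the wt libraries, against 185, 126.7 and 81.6 in null libraries 1, 2 and 3, so the sum in null library 3 was close to that of wt library 2. Tead2 made up 85.9% and 92.4% of the sum in the wt libraries, compared with 74.6%, 78.3% and 79.4% in the null libraries. The remainder in null library 1 was mostly Tead3 (20.1%), whereas in null library 2 Tead1 (9.27%) and Tead3 (8.86%) had nearly equal shares. In null library 3 Tead3 had 13.7% and Tead1 5.42%.

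**Figure D2:**
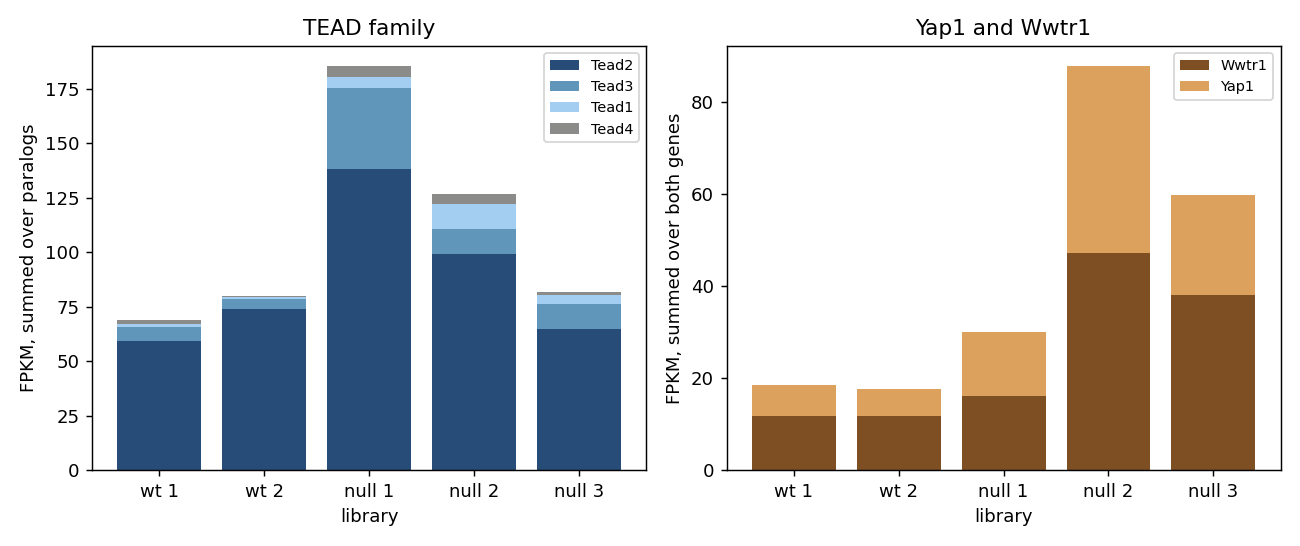
Stacked FPKM (linear y axis from 0) of the 4 TEAD genes (left) and of Yap1 and Wwtr1 (right) in each of the 5 libraries, 1 bar per library and no error bars. Tead2 fills most of every left bar, and the right bars are 18.6 and 17.6 FPKM high in the wt libraries against 30.1 to 87.9 in the null libraries.

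Reads shared by transcripts of a gene were divided among them by the counting program of the authors, so values per transcript are less certain than those per gene. Tead1 was listed as 2 RefSeq transcripts. The one of 9962 bases was at 1.31 and 0.62 FPKM in the wt libraries and at 1.27, 4.64 and 2.17 in the null libraries. The one of 9480 bases was not listed in the wt libraries and was at 3.70, 7.11 and 2.25 in the null libraries. In null library 1 the whole excess of Tead1 over wt library 1 was thus listed under the shorter transcript. Tead3 in null library 1 was 90.3% a single transcript of 2616 bases (33.7 FPKM), which made up 28.1% to 39.8% of the gene in the other 4 libraries. Yap1 was divided between transcripts of 4152 and 4200 bases in all 5 libraries, and the shorter held 35.4% to 63.5% of the gene. A Wwtr1 transcript of 4688 bases was listed in null library 3 alone, at 2.28 FPKM or 6.00% of the gene.

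The 4 target genes did not move together. Ccn1 and Ccn2 encode secreted proteins of the extracellular matrix, Ankrd1 encodes an ankyrin-repeat protein that acts as a transcription cofactor, and Amotl2 encodes a junction scaffold of the angiomotin family that binds YAP. Only Ccn2 had every null library above both wt libraries in FPKM, and none of the 4 genes had every null library below them, beside 35.9% and 7.22% of all genes, so these counts were near the background.

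TEAD factors bind the sequence GGAATG, which reads CATTCC on the other strand, and the stretch just before the transcription start is shown for the target genes found in RefSeq's promoter table for GRCm38.p6. The table held promoters for 7 of the 10 genes, not Ccn2, Tead1 or Tead4. The 250 bases before the start were searched on both strands, and capitals mark a match. The stretches are chr3:145649986-145650235 (minus strand), chr19:36119845-36120094 (minus strand) and chr9:102717554-102717803 (plus strand), all before the annotated start of the gene.
Ccn1: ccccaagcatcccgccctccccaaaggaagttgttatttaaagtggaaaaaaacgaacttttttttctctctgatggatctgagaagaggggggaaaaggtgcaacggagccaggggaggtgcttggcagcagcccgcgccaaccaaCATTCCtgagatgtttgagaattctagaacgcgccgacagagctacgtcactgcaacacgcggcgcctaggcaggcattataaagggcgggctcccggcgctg
Ankrd1: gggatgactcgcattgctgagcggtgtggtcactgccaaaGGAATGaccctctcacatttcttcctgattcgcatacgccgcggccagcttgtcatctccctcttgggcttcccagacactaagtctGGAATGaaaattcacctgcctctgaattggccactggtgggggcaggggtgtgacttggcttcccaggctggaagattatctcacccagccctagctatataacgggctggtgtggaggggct
Amotl2: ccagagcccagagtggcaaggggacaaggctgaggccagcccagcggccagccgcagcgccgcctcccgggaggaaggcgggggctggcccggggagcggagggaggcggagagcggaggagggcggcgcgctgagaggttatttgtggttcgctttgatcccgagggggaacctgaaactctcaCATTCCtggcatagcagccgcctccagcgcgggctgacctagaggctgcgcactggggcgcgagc
Ccn1 held 1 match, 103 bases before the start, Ankrd1 held 2 matches, 210 and 123 bases before it, and Amotl2 held 1 match, 65 bases before it. Yap1 and Wwtr1 held a match 141 and 136 bases before the start (in Wwtr1 the upstream of the 2 listed starts), Tead3 held matches before 2 of its 3 listed starts, and Tead2 held none. In all, 12.6% of the 32851 promoters in the table, and 14.4% of the 27025 genes, held this sequence in the same window. The AP-1 sequence TGANTCA, present in 6.75% of promoters, and the CArG box bound by serum response factor, in 1.47%, were in none of the windows of these 7 genes. A match says that the letters are present and not that a factor was bound.

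Ccn2 was at 22.3 and 52.5 FPKM in wt libraries 1 and 2 and at 147, 68.3 and 179 in null libraries 1, 2 and 3. The means were 37.4 ± 21.4 (SD, n = 2) and 131.5 ± 57.0 (SD, n = 3), a 3.52-fold difference, with an exact permutation p of 0.2. Wt library 2 and null library 2 lay close to each other, and in CPM after TMM normalization their order turned round (175 and 136). The log2 fold change of the counts was 1.20 (SE 0.66, adjusted p = 0.36 by edgeR's quasi-likelihood test) against a median of 0.11 for its length class, and it was 1.23 with the length trend taken out. Ccn2 was also 2.36 times as high in wt library 2 as in wt library 1 in CPM (exact counting interval 2.23 to 2.50), and its log2 fold change was 2.00 without wt library 2 and 0.58 without wt library 1.

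Ccn1 had the highest mean FPKM of the 4 targets over all 5 libraries, although Ankrd1 was higher in wt library 1 and null library 1. It was at 248 and 206 FPKM in the wt libraries and at 187, 339.8 and 612 in null libraries 1, 2 and 3. Null library 1 was the lowest and null library 3 the highest of the 5 libraries, so the null lines lay on both sides of the wt line. Null library 2 was above both wt libraries in FPKM, but in CPM after TMM normalization it (566) was below both (604 and 575). The log2 fold change of Ccn1 was 0.14 (SE 0.53, adjusted p = 0.907 by edgeR's quasi-likelihood test), and it was −0.40 without null library 3.

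Ankrd1 spread as widely within the BVE line as over all 5 libraries in FPKM. It was at 325 and 149.8 FPKM in wt libraries 1 and 2, a ratio of 2.17 in CPM (exact counting interval 2.11 to 2.23), and at 243, 209 and 183 in null libraries 1, 2 and 3. All 3 null libraries lay between the wt libraries in FPKM, whereas in CPM after TMM normalization null libraries 2 and 3 (302 and 267) lay below both wt libraries (687 and 362). The log2 fold change of the counts was −0.71 (SE 0.45, adjusted p = 0.425 by edgeR's quasi-likelihood test), and the value was negative in every alternative but not stable in size, at −1.19 without wt library 2, −0.25 without wt library 1 and −0.071 by limma on log2(FPKM + 0.1). Of the pair of wt libraries, Ankrd1 was higher in the one labelled without TSH and Ccn2 in the one labelled with TSH. Each of these is 1 library, and over all 13240 genes 12.7% were apart by more than 1 on the log2 scale of FPKM + 0.1 between the wt libraries.

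Amotl2 was at 30.7 and 40.8 FPKM in the wt libraries and at 27.6, 28.0 and 68.1 in null libraries 1, 2 and 3. Null libraries 1 and 2 were below both wt libraries, and null library 3 was above them in FPKM. In CPM after TMM normalization null library 3 (238.2) was level with wt library 2 (237.5). The log2 fold change was −0.41 (SE 0.54, adjusted p = 0.701 by edgeR's quasi-likelihood test), which was 1.28 below the median of its length class. Among the 10 genes this gap was matched in size by that of Tead3, 1.27 above its class. It was −0.99 without null library 3 and −0.15 without wt library 2. With the length trend taken out it was −0.98 (SE 0.56, adjusted p = 0.481 by the same test). On the log2(FPKM + 0.1) scale, limma gave 0.081.

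Over the 10 genes, 8 log2 fold changes were above 0 and 2 below, with a median of 0.82 against 0.29 over all 13240 genes. With the length trend taken out these were 0.45 and 0.13. By the quasi-likelihood test of edgeR, adjusted after Benjamini and Hochberg, 0 of the 10 genes and 0 of 13240 genes passed an adjusted p of 0.05. At an unadjusted p under 0.05, 2 of the 10 (Yap1 and Tead1) were higher and 0 lower, beside 12.4% of all genes higher and 6.07% lower. This count of 2 was 1 without null library 2 or null library 3, and 1 with the replicate number fitted as a block. It was 3 without null library 1, and 5 with limma on log2(FPKM + 0.1). The count over all genes, 1646, also moved. It was 1659 without null library 2, 1430 without null library 3 and 2046 without null library 1. The block gave 947, and limma 2269 of 11888 genes. Fits without a wt library leave 1 library in that group, so their counts are not given. DESeq2 called 1 of the 10 (Tead1, higher) at an adjusted p under 0.05, beside 8.41% of all genes higher and 3.68% lower, and limma on log2(FPKM + 0.1) called none of the 10, beside 0.00841% and 0.0421%. In FPKM, 5 of the 10 had every null library above both wt libraries and 0 had every null library below, beside 35.9% and 7.22% of all genes. In CPM after TMM normalization these were 3 (Yap1, Tead1 and Tead3) and 0, beside 22.6% and 17.3%. With the length trend taken out they were 2 (Yap1 and Tead3) and 0, beside 16.3% and 17.8%, and none of the 10 had an unadjusted p under 0.05, beside 7.25% of all genes higher and 5.69% lower. The median of all genes was itself above 0 and depended on the scaling, at 0.21 in edgeR, 0.13 in DESeq2 and 0.61 in limma over the 11796 genes common to the 3 fits.

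**Figure D3:**
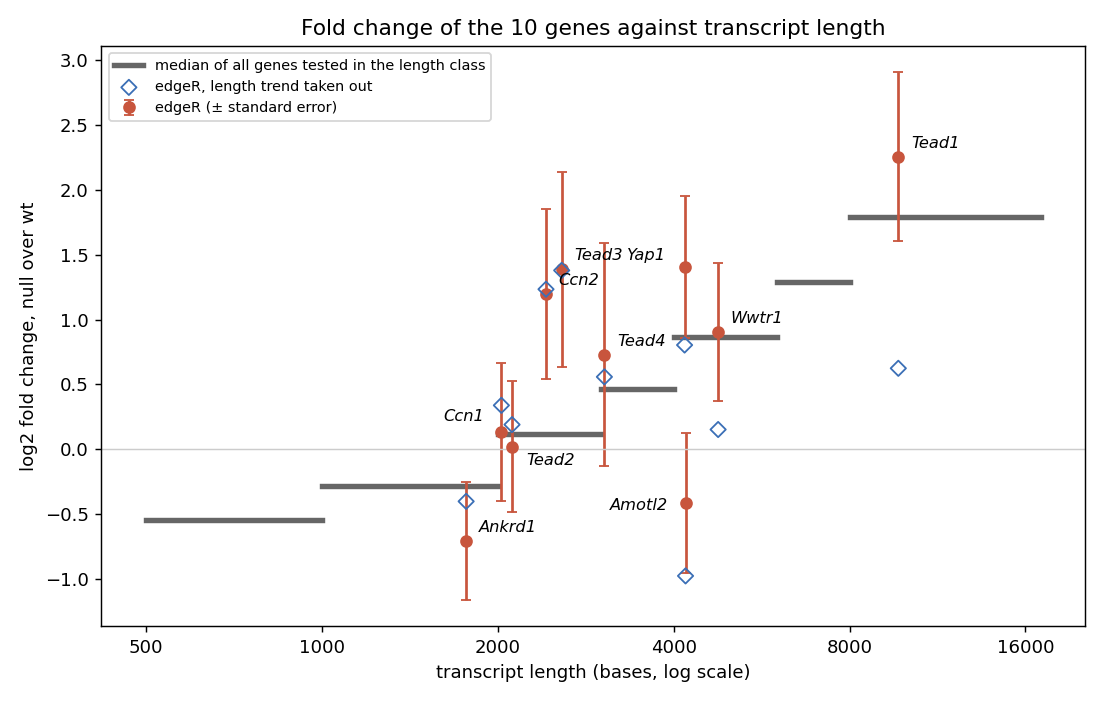
Log2 fold change of the counts, null over wt (y axis), against transcript length in bases (x axis, log scale); red points with bars are edgeR values ± standard error, open diamonds the values with the length trend taken out, and grey lines the median of all genes in a length class. Wwtr1, Ccn1 and Tead2 lie within 0.1 of the grey lines, Tead3 and Ccn2 lie more than 1 above them, and Amotl2 lies 1.28 below its line.

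Of the 12 genes of the Hippo kinase core (kinases, their scaffolds and upstream activators), all 12 had a log2 fold change above 0, and 9 had every null library above both wt libraries in FPKM, beside 35.9% of all genes and 55% of genes of 4000 to 6000 bases. None passed the adjusted test of edgeR. At an unadjusted p under 0.05, 4 were higher, beside 12.4% of all genes and 20.4% of that length class, and DESeq2 called 3 (Stk3, Lats1 and Taok1), beside 8.41% of all genes. The median transcript of the list had 4696 bases, and the median log2 fold change of 1.04 (0.29 over all genes) was 0.49 with the length trend taken out (0.13 over all genes), when 8 of the 12 were above 0 and 2 were higher at an unadjusted p under 0.05, beside 7.25% of all genes. The groups were then apart with higher null values for 3 genes and lower for 1, beside 16.3% and 17.8% of all genes, and in CPM after TMM normalization for 6 and 0, beside 22.6% and 17.3%. Stk3, which encodes the MST2 kinase, was at 2.00, 1.84, 5.91, 9.29 and 20.9 FPKM in wt libraries 1 and 2 and null libraries 1, 2 and 3, with a log2 fold change of 2.04 (SE 0.67, adjusted p = 0.212 by edgeR's quasi-likelihood test). This value was 1.88 with the length trend taken out. Mob1b, a LATS activator, was at 0.36, 0.14, 0.79, 3.12 and 1.45 FPKM. Its log2 fold change was 2.26, and 2.02 with the length trend taken out. Taok1, an upstream kinase with a transcript of 12411 bases, was at 0.14, 0.21, 1.04, 1.90 and 1.69 FPKM, and its value of 2.50 was 0.62 with the length trend taken out. Sav1, the scaffold of the MST kinases, was at 20.4, 17.6, 14.8, 69.4 and 26.4 FPKM, with overlap between the groups. Map4k4, another kinase upstream of LATS, was at 19.1, 16.8, 35.0, 43.6 and 24.1 FPKM, and its log2 fold change of 0.36 turned to −0.57 with the length trend taken out.

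Among 17 genes of junction and polarity proteins that feed into the pathway, 13 had a log2 fold change above 0, and none passed the adjusted test of edgeR. At an unadjusted p under 0.05, 5 were higher and 1 lower, beside 12.4% and 6.07% of all genes, and 20.4% and 1.45% of genes of 4000 to 6000 bases. DESeq2 called Fat1 and Patj higher and Dchs1 lower, beside 8.41% and 3.68% of all genes. The median of 1.02 was 0.13 with the length trend taken out, when 9 of the 17 were above 0 and 1 was higher and 1 lower at an unadjusted p under 0.05, beside 7.25% and 5.69% of all genes. Fat1 and Dchs1, which encode giant protocadherins of the FAT and Dachsous families, went opposite ways. Fat1 was at 0.59 and 0.32 FPKM in the wt libraries and at 11.5, 7.35 and 5.58 in the null libraries, with a log2 fold change of 3.64 (SE 0.62, unadjusted p = 0.000712, adjusted p = 0.18 by edgeR's quasi-likelihood test), of which 1.61 was left with the length trend taken out. Dchs1 was at 5.05 and 3.06 FPKM in the wt libraries and at 0.02, 0.28 and 0.14 in the null libraries, with a log2 fold change of −5.39 (SE 0.98, adjusted p = 0.18 by edgeR's quasi-likelihood test). Its transcript of 10651 bases falls in the class with the highest median, and with the length trend taken out the value was −7.14.

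A pair of polarity genes of this list was highest in a single line. Patj, a scaffold of the Crumbs complex, was at 0.09, 0.18, 13.1, 0.63 and 1.94 FPKM (wt 1, wt 2, null 1, null 2, null 3). Crb3, which encodes a Crumbs protein of epithelial cells, was at 2.08, 2.45, 111.6, 0.06 and 10.1 FPKM. Both genes were highest in null library 1, the library with the highest sum of epithelial markers. The part of those markers in these values was not tested.

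Vgll proteins bind TEAD factors without YAP or TAZ. Vgll3 was at 0.84 and 0.64 FPKM in the wt libraries and at 1.78, 5.72 and 24.7 in null libraries 1, 2 and 3, with a log2 fold change of 3.23 (SE 1.14, adjusted p = 0.227 by edgeR's quasi-likelihood test), and DESeq2 called it higher. The groups did not overlap, but the values of the null libraries spread more than 10-fold, and the median over the 3 listed Vgll genes went from 3.23 to 1.05 without null library 3. Vgll4, which competes with YAP for TEAD, was at 6.19, 4.22, 10.1, 10.4 and 21.1 FPKM, a log2 fold change of 0.83 for a transcript of 1327 bases, whose length class had a median of −0.29. Vgll2 was not listed in the wt libraries and reached at most 0.30 FPKM in the null libraries, and Vgll1 was listed in no library.

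Of 18 further genes reported as YAP and TAZ targets (Lats2 is also in the kinase list), 15 had a log2 fold change above 0 and 10 had every null library above both wt libraries in FPKM. The median transcript of the list had 4821 bases, and 55% of all genes of 4000 to 6000 bases had the same order of libraries, so the count was near that background. None passed the adjusted test of edgeR. At an unadjusted p under 0.05, 5 were higher, beside 12.4% of all genes and 20.4% of that length class, and DESeq2 called 3 (Asap1, Crim1 and Nuak2), beside 8.41% of all genes. Their median log2 fold change of 1.14 was 0.30 with the length trend taken out, when 2 were higher and 1 lower at an unadjusted p under 0.05, near the 7.25% and 5.69% of all genes. The groups were then apart with higher null values for 4 genes and lower for 3, near the 16.3% and 17.8% of all genes, and in CPM after TMM normalization for 8 and 1, beside 22.6% and 17.3%. Asap1, a regulator of ARF GTPases at focal adhesions, was at 1.73 and 1.80 FPKM in the wt libraries and at 9.78, 13.1 and 12.6 in the null libraries. The spread within each group was small, and the log2 fold change of 2.14 (SE 0.45, adjusted p = 0.18 by edgeR's quasi-likelihood test) was 1.11 with the length trend taken out. Crim1, a transmembrane protein that binds BMPs, was at 1.53, 1.47, 2.92, 14.2 and 18.6 FPKM (log2 fold change 2.36, and 1.37 with the length trend taken out), and Nt5e, the ecto-nucleotidase CD73, at 0.30, 0.14, 0.57, 2.33 and 2.57 (2.46, and 2.07 with the trend taken out).

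The receptor tyrosine kinase gene Axl was the most abundant of these 18 genes and behaved otherwise. It was at 255 and 177 FPKM in the wt libraries and at 141, 249.7 and 137 in null libraries 1, 2 and 3. The groups overlapped in FPKM, but in CPM after TMM normalization every null library was below both wt libraries. Axl had a log2 fold change of −0.88 (SE 0.42, adjusted p = 0.309 by edgeR's quasi-likelihood test), and −1.67 with the length trend taken out. Gadd45a, a stress-response gene and the next in abundance, was at 43.1, 12.1, 32.3, 22.1 and 152 FPKM, with overlap between the groups.

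**Figure D4:**
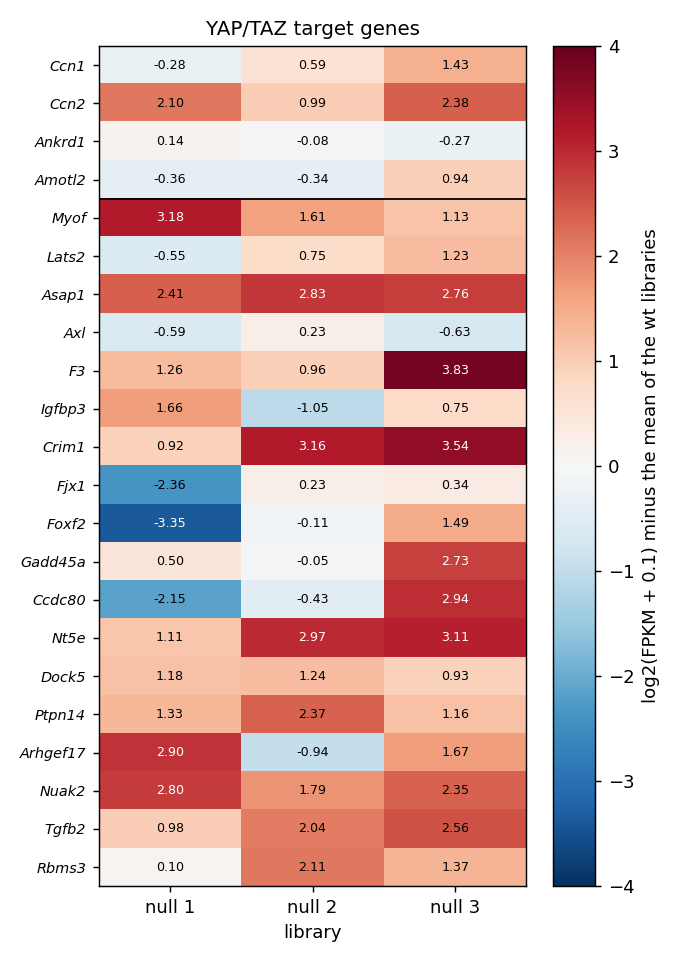
Difference of log2(FPKM + 0.1) of each null library (columns) from the mean of the 2 wt libraries for the 4 target genes among the 10 (above the line) and the 18 further targets (below it); red is higher and blue lower, and each cell prints its value. Asap1 and Nuak2 are red in all 3 columns, whereas Ccn1, Amotl2 and Foxf2 have different signs in different lines.

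The lines also differed in which target was highest. In null library 3, Ccn1, Ccn2 and Amotl2 all had their highest FPKM of the 5 libraries. In null library 1, Ccn2 was at 147 FPKM while Ccn1 and Amotl2 had their lowest FPKM. Null library 2 had the highest Yap1, Wwtr1 and Tead1 of the 5 libraries, with Ccn2 (68.3 FPKM) the lowest of the null libraries and Amotl2 (28.0) within 1 FPKM of null library 1. In FPKM the order of the co-activators over the null lines was not the order of Ccn1, Ccn2, Ankrd1 or Amotl2. The same held in CPM after TMM normalization, where Amotl2 was lower in null library 2 (97) than in null library 1 (108).

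For each target gene, the genes whose log2(FPKM + 0.1) was most like it over the 5 libraries are given by Pearson's r, among 4506 genes with a mean FPKM of at least 10 and a range of at least 1 on that scale. With 5 libraries, of which 2 share a line, high values of r are common, and they are a description only. Ccn1 was most like Il6st (r = 0.999), Srp14 (0.996) and Emc2 (0.996), and 123 genes reached an r of 0.95. For Ccn2 these were Fbxo21 (0.997), Cpne8 (0.988) and E2f1 (0.981), for Ankrd1 they were Bysl (0.996), Sgf29 (0.974) and Rad9a (0.958), and for Amotl2 Socs3 (0.987), Arsa (0.978) and Zswim7 (0.977). None of the 4 targets was among the 3 genes most like another target.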

How the data were processed

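RNA of mouse thyroid tumor cell lines was sequenced from TruSeq libraries. The authors deposited, per library and RefSeq transcript, an estimated count that can be fractional, together with FPKM. Values start at an FPKM of 0.01, and a gene or transcript not listed in a library was given a value of 0 there. The aligner, counting program and genome build are not given in the sources used here. Transcript values were added up per NCBI gene, and counts were rounded. Of 17923 genes, 17866 matched a symbol in RefSeq's table for GRCm38.p6, and the other 57 have no name here. The 10 member genes and all gene lists were chosen with earlier results of these data known. Groups were compared over 13240 genes in edgeR 4.0.16 (R 4.3.3, TMM normalization, filterByExpr by group with the members and Ctnnb1 always kept, glmQLFit and glmQLFTest, Benjamini-Hochberg adjustment over all genes, threshold 0.05), without covariates. FPKM of single genes was compared with exact permutation tests (Python 3.11.15, scipy 1.17.1). A gene's length is the mean of its transcripts weighted by count.

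Alternatives were DESeq2 1.42.0, omitting the count filter, requiring 10 counts in all libraries, limma 3.58.1 on log2 of FPKM plus 0.1, 0.01 or 1 (where 2 libraries reached an FPKM of 0.5), leaving out each library, and the replicate number as a block. The fit with the length trend taken out was chosen after seeing the data. The fits were tested on simulated data, of which no result is given here. Named genes are the members, Ctnnb1 and, per list, the 2 with the highest mean FPKM and up to 3 with the largest absolute fold change among those with a mean FPKM of at least 1 in either group and groups that did not overlap. Lats1 and Nuak2 (called by DESeq2), Foxf2, Vgll2 and the marker genes other than Nkx2-1, Pax8, Krt7, Krt18, Col1a1, Postn and Cd68 were chosen after their values were seen. Counting intervals are exact 95% binomial intervals and cover counting error only. Values of 2 list genes that the naming rule or the marker check would name are not reported here.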

Additional observations from a re-analysis of the deposited data

How the results depend on the processing

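Of the 10 genes, 6 kept the direction of their log2 fold change in every alternative (Yap1, Wwtr1, Tead1, Tead3, Tead4 and Ccn2 higher), and Ankrd1 stayed lower. Tead2 turned from 0.02 to −0.067 with DESeq2 and −0.055 with no filter on low counts, and was −0.38 to 0.22 when a library was left out (−0.30 without wt library 1, −0.38 without null library 1 and −0.026 without null library 2). Amotl2 turned from −0.41 to 0.081 with limma at each pseudocount. Ccn1, at 0.14, was −0.40 to 0.39 when a library was left out, with −0.40 without null library 3. The replicate block gave −0.40 for Ccn1, 0.67 for Wwtr1 and 2.48 for Tead1, and changed no call at an adjusted p. Its pairs did not deviate together (r = −0.11 for both pairs). Beside the number, wt library 1 and null library 1 share the label without TSH. The deviations of 2 wt libraries mirror each other, so these values cannot decide whether the pairs share anything else. The adjusted p of Tead1 was under 0.05 with DESeq2 only.

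Over all genes, DESeq2 called 1113 higher and 487 lower at an adjusted p under 0.05 where edgeR called 0, and of the 10 genes it called 1 higher. Genes called lower numbered 4 with no filter, 1 with at least 10 counts in every library, and 5, 3 and 7 with limma at 0.1, 0.01 and 1, when 1 was called higher each time. The number of the 10 genes with every null library above both wt libraries in FPKM was 5 to 7 when a library was left out, 3 in CPM after TMM normalization and 2 with the length trend taken out. The number below was 0 to 1, with 1 without wt library 2 or null library 3. The kinase median of 1.04 became 1.41 and 1.44 with limma at 0.1 and 0.01 and 0.49 with the length trend taken out, and was 0.89 to 1.26 when a library was left out. The junction median of 1.02 became 0.13 with the length trend taken out and was 0.47 to 1.22 when a library was left out (0.47 without null library 1). The median of the further targets, 1.14, became 0.64 with the replicate block and 0.30 with the length trend taken out, and was 0.85 to 1.25 when a library was left out. The causes of these shifts were not tested. With 2 libraries against 3 and 1 wt line, differences of the size seen here cannot be told apart from differences between lines.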

Other observations

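Other gene groups near the pathway varied by line. The other CCN genes were low in most libraries. Ccn5 was at 1.76 and 6.28 FPKM in the wt libraries, 0.06 in null library 1 and 68.8 in null library 3, and was not listed in null library 2. Ccn4 was at 4.53, 3.00, 0.66, 11.4 and 6.02 FPKM (wt 1, wt 2, null 1, null 2, null 3) and Ccn3 at 0.10, 0.14, 0.18, 0.76 and 4.88. Ccn6 was listed in no library, and none of the 3 listed genes had an unadjusted p under 0.05 by edgeR's quasi-likelihood test.

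Of 12 genes of serum response factor and the actin skeleton, 7 had a log2 fold change above 0, with a median of 0.81 that was −0.08 without null library 3 and 0.06 with the length trend taken out. Acta2, smooth muscle actin, was at 81.9 and 71.3 FPKM in the wt libraries and at 192 and 942 in null libraries 2 and 3, and was not listed in null library 1. Tpm1, a tropomyosin, was the most abundant gene of the list, at 1364, 1841, 589, 2983 and 633 FPKM. Mrtfb, a co-activator of serum response factor, was the single gene of the list with an unadjusted p under 0.05 and was called by DESeq2 (1 of 12, beside 12.4% and 8.41% of all genes higher), at 0.22 and 0.43 FPKM in the wt libraries, against 2.34, 2.10 and 2.43 in the null libraries. Its transcript has 8189 bases, and its log2 fold change of 2.43 was 1.06 with the length trend taken out. Mrtfa, its paralog, was at 13.4, 11.1, 29.4, 26.4 and 25.2 FPKM, with a log2 fold change of 0.60 that was 0.019 with the length trend taken out.

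The 7 AP-1 genes, whose factors often bind beside TEAD, had a median log2 fold change of −0.11, and 3 were above 0. The sign of this median was not stable, at 0.46 to 0.49 with limma, 0.30 and 0.27 without wt library 1 or 2, −0.82 without null library 1 and −0.60 with the length trend taken out. None had an unadjusted p under 0.05 by edgeR's quasi-likelihood test. Junb was at 109, 89.7, 329, 60.9 and 236 FPKM, and Jund at 94.4, 87.2, 407, 78.1 and 85.7. Fos was at 0.20 and 0.14 FPKM in the wt libraries, against 1.69, 0.31 and 2.31 in the null libraries, with no overlap.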
